A study of Mus musculus with 3 samples.

Results

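The naive and memory T cell regulators are 10 genes chosen by name, Tcf7, Lef1, Foxo1, Klf2, Bach2, Id3, Satb1, Myb, Il7r and Dapl1, and all 10 were found among the 17796 genes of the deposited table. They were measured in T cells from the spleens of C57BL/6 mice, after culture for 3 days on antibodies against CD3 (2 ug/ml) and CD28 (5 ug/ml) with interleukin 2 at 100 IU/ml. The Old + Fumarate group was aged mice, stated as 24 months old, dosed with fumarate at 10 mg/kg, 3 times weekly over 2 months. The Old group was aged mice, also stated as 24 months old, given vehicle on the same schedule of 3 doses weekly over 2 months, and the Young group was mice aged 2 months and labelled as given vehicle. Each group had 1 library, and pooling of mice is not described, so every difference is one between single libraries, without a replicate check or a p-value.

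Many of these genes help to hold T cells in a resting or long-lived state, while Dapl1 is used as a marker of naive and precursor T cells. TCF1 (encoded by Tcf7) and LEF1 are related DNA-binding proteins that set the T cell programme and keep memory cells able to renew. FOXO1 acts in resting T cells, where growth signals through AKT drive it out of the nucleus, and it promotes transcription of Klf2, Il7r and homing receptor genes. BACH2 and ID3 restrain effector differentiation. Activation through the T cell receptor is known to turn many of these genes down.

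Levels are CPM, reads per gene scaled to a total of 1000000 in each library. Depth, estimated from the worth of 1 read, was 13853713 reads for Old + Fumarate, 17264274 reads for Old and 40988315 reads for Young, and the members had between 76 and 27262 reads in a library. Each difference is given as a log2 ratio after adding 1 to the CPM, and a gene was counted as higher or lower at 1.5-fold or more on that scale. The CPM ratios of single members carry 95% exact intervals that cover counting error only. All 18 T cell identity genes were detected in every library, with summed levels of 5454, 4489 and 5083 CPM in Old + Fumarate, Old and Young. Their median log2 ratio was -0.38 for Old over Young, 0.22 for Old + Fumarate over Old and -0.16 for Old + Fumarate over Young. The Old library stood apart by genes of other blood lineages. The 23 markers of megakaryocytes and platelets, of erythroid cells and blood progenitors, and of basophils and mast cells summed to 266 CPM in Old + Fumarate, 1892 CPM in Old and 19.7 CPM in Young, and none was at 0 in any library. All 23 were higher in Old than in Young and lower in Old + Fumarate than in Old, and 19 of 23 were higher and none lower in Old + Fumarate than in Young. Over all genes counted, 16.5% were higher in Old over Young and 11.2% lower in Old + Fumarate over Old. In Old + Fumarate over Young, 10.5% were higher. The marker lists were chosen with earlier results of these data known, so these counts are no independent check. All 3 comparisons therefore stand beside a difference in these markers, whose part in the results was not tested.

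In Old against Young, 3 members were lower (Dapl1, Id3 and Tcf7), 2 were higher (Myb and Il7r) and 5 lay within 1.5-fold. Among the 13750 genes with a mean of at least 1 CPM, 6.73% were lower and 16.5% higher, so the 2 higher members are close to the general share. In Old + Fumarate against Old, 1 member was higher (Tcf7) and 1 lower (Klf2), against 2.15% higher and 11.2% lower over all genes. In Old + Fumarate against Young, 3 were higher (Myb, Il7r and Satb1) and 2 lower (Id3 and Dapl1), against 10.5% higher and 6.79% lower over all genes. The median log2 ratio of the 10 members was -0.25 for Old over Young, 0.26 for Old + Fumarate over Old and -0.04 for Old + Fumarate over Young, beside medians over all genes of 0.03, -0.02 and 0.00479. Scaled to the T cell identity genes, the medians over Young turned to 0.13 for Old + Fumarate and 0.15 for Old.

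**Figure D1:**
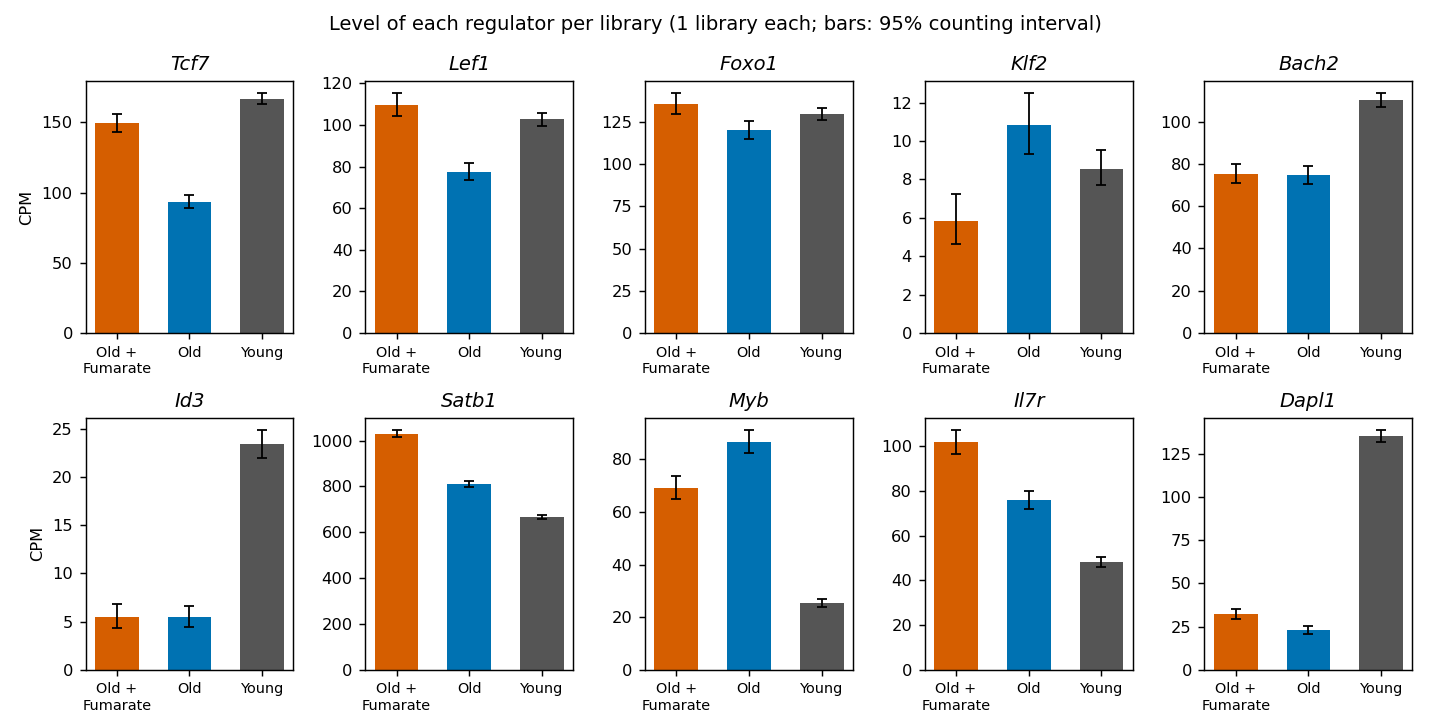
Each panel shows 1 member's level in CPM (y axis, from 0) in the Old + Fumarate, Old and Young libraries, as bars with 95% counting intervals. Dapl1 and Id3 were highest in Young at 135 and 23.4 CPM, Myb was lowest there at 25.4 CPM, and Tcf7 was lowest in Old at 93.3 CPM.

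Tcf7 and Lef1 both had their lowest value in the Old library. Tcf7, which encodes TCF1 (chr11:52252371-52283331, minus strand, mm10), was at 149.6 CPM in Old + Fumarate, 93.3 CPM in Old and 167 CPM in Young. The Old level was 0.559 times the Young level (95% counting interval 0.529 to 0.590), a log2 ratio of -0.83, and the Old + Fumarate level was 1.60 times the Old level, a log2 ratio of 0.68 (interval of the log2 CPM ratio 0.59 to 0.78). Old + Fumarate thus lay between the other 2 libraries and near Young, at 0.897 times its level (0.854 to 0.942). In bulk RNA, fewer cells that express a gene and less RNA per cell cannot be told apart. Scaling to the T cell identity genes brought both Tcf7 ratios within 1.5-fold, to -0.43 for Old over Young and 0.45 for Old + Fumarate over Old.

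Lef1, the partner of TCF1 in many T cell functions (chr3:131110471-131224356, plus strand), was at 109.6 CPM in Old + Fumarate, 77.5 CPM in Old and 103 CPM in Young. It followed Tcf7 in having its lowest value in Old, but both of its ratios stayed within 1.5-fold. The Old level was 0.754 times Young (0.709 to 0.803), and Old + Fumarate was 1.41 times Old (1.31 to 1.52) and 1.07 times Young (1.01 to 1.13). Within a library, and per kilobase of exon, Tcf7 stood at 4.57 times Lef1 in Old + Fumarate (4.27 to 4.88), 4.03 times in Old (3.74 to 4.33) and 5.44 times in Young (5.23 to 5.65).

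Genes for proteins that work with TCF1 and LEF1, or that control beta-catenin, showed few differences in RNA level. Of 15 symbols listed for beta-catenin, its regulators and cofactors, 13 passed the minimum. Aes, an earlier symbol of Tle5, was absent, Tle5 was counted, and Tle2 was under the minimum. In Old over Young, 1 was higher and 1 lower (median log2 ratio 0.05), against 16.5% higher and 6.73% lower over all genes. The higher one was Tle1, a Groucho corepressor, at 16.0 CPM in Old + Fumarate, 28.9 CPM in Old and 17.9 CPM in Young. The lower one was Bcl9, a coactivator that binds beta-catenin, at 7.43, 10.4 and 19.2 CPM in the same order. Tle1 was the single gene of this list past 1.5-fold in Old + Fumarate over Old, where it was lower (list median -0.08). Axin2, a common target of Wnt signalling, was at 7.65 CPM in Old + Fumarate, 6.02 CPM in Old and 7.88 CPM in Young, and Ctnnb1, which encodes beta-catenin itself, was at 238, 284 and 275 CPM. The corepressor genes Tle3 and Tle4 and the coactivator gene Bcl9l lay within 1.5-fold in all 3 comparisons, with Tle3 at 142, 127 and 113 CPM.

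Foxo1 (chr3:52268336-52353221, plus strand) was the most even member. It was at 135.8 CPM in Old + Fumarate, 120.2 CPM in Old and 129.6 CPM in Young. The interval of Old + Fumarate over Young, 0.994 to 1.11, included 1, and the Old level was 0.928 times Young (0.881 to 0.976). Its small log2 ratios turned sign when scaled to the T cell identity genes, from -0.11 to 0.29 for Old over Young and from 0.18 to -0.05 for Old + Fumarate over Old. Of 14 genes that control FOXO1 activity, 13 lay within 1.5-fold in Old over Young and all 14 in Old + Fumarate over Old. Over all genes, 16.5% were higher and 6.73% lower in the former, and 2.15% and 11.2% in the latter. The exception among the 14 was Sgk1, a kinase that phosphorylates FOXO proteins, at 28.0 CPM in Old + Fumarate, 19.9 CPM in Old and 3.22 CPM in Young. Akt1, which encodes an AKT kinase, was at 346 CPM in Old + Fumarate, 338 CPM in Old and 235 CPM in Young.

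Klf2, a factor that maintains quiescence and promotes exit from lymphoid tissue (chr8:72319033-72321656, plus strand), was low in all 3 libraries. It was at 5.85 CPM in Old + Fumarate, 10.8 CPM in Old and 8.56 CPM in Young, or 81, 187 and 351 reads. Old + Fumarate was 0.540 times Old (0.411 to 0.704) and 0.683 times Young (0.529 to 0.872), and Old was 1.26 times Young (1.05 to 1.51). Of these, Old + Fumarate over Old was past 1.5-fold, with a log2 ratio of -0.79, and adding 5 CPM rather than 1 brought it to -0.55, within the limit. Scaling to the T cell identity genes moved the log2 ratio of Old over Young from 0.31 to 0.67, past the limit.

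Il7r, the alpha chain of the interleukin 7 receptor that keeps naive and memory T cells alive (chr15:9505788-9530176, minus strand), was higher in both aged libraries than in Young. It was at 101.9 CPM in Old + Fumarate, 75.9 CPM in Old and 48.2 CPM in Young. Old was 1.58 times Young (1.47 to 1.69), Old + Fumarate was 2.12 times Young (1.98 to 2.27) and Old + Fumarate was 1.34 times Old (1.24 to 1.45). The log2 ratio of Old over Young, 0.65, was near the limit and came to 0.55 and within it with upper-quartile scaling. Of 14 genes of interleukin 7 receptor signalling, 3 were higher and 1 lower in Old over Young (median 0.02), and 10 lay within 1.5-fold. Over all genes, 16.5% were higher and 6.73% lower in that comparison. Il2rg, the shared gamma chain that pairs with the receptor, was at 409 CPM in Old + Fumarate, 389 CPM in Old and 313 CPM in Young. Bcl2, a survival gene downstream of this receptor, was at 238, 180.4 and 223 CPM. Crlf2, which pairs with the interleukin 7 receptor alpha chain to bind thymic stromal lymphopoietin, was at 26.5 CPM in Old + Fumarate, 47.7 CPM in Old and 23.2 CPM in Young, and was the 1 gene of the list past 1.5-fold in Old + Fumarate over Old. The kinase genes Pim1 and Pim2 differed in opposite directions, with Pim1 at 499, 575 and 351 CPM and Pim2 at 190.1, 206 and 358 CPM. Socs3, a feedback inhibitor of cytokine signals, was at 97.5 CPM in Old + Fumarate, 90.5 CPM in Old and 58.8 CPM in Young, and Stat3 was within 1.5-fold at 664, 502 and 686 CPM.

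Homing and quiescence genes known as FOXO1 or KLF2 targets differed in both directions. Of 15, all measured, 2 were higher and 3 lower in Old over Young (median -0.18), 1 was higher and 2 lower in Old + Fumarate over Old (median -0.11), and 3 were higher and 7 lower in Old + Fumarate over Young (median -0.43). Over all genes, 16.5% were higher and 6.73% lower in Old over Young. The shares were 2.15% and 11.2% in Old + Fumarate over Old, and 10.5% and 6.79% in Old + Fumarate over Young. Ccr7, which guides T cells into lymph nodes, was at 488 CPM in Old + Fumarate, 412 CPM in Old and 1165 CPM in Young. S1pr1, the receptor for exit from lymphoid tissue and a target of KLF2, was at 71.9, 46.3 and 18.3 CPM, and was higher in all 3 comparisons. S1pr1 was highest in the library in which Klf2 was lowest, at 81 reads, and a link between these levels was not tested. Klf3, a related factor, was at 11.4, 19.4 and 27.5 CPM, and Rasgrp2, an exchange factor of Rap GTPases also abundant in platelets, was at 8.52, 21.4 and 4.83 CPM.

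Bach2, a repressor that holds back effector genes in lymphocytes (chr4:32238804-32586108, plus strand), lay within 1.5-fold in all 3 comparisons, with its highest value in Young. It was at 75.3 CPM in Old + Fumarate, 74.7 CPM in Old and 110.3 CPM in Young. The aged libraries did not differ beyond counting error, with a ratio of 1.01 (0.928 to 1.09). Old was 0.677 times Young (0.636 to 0.721), a log2 ratio of -0.56 just inside the limit, which TMM, median-of-ratios and upper-quartile scaling moved past it to -0.61, -0.59 and -0.65, while scaling to the T cell identity genes brought it to -0.16. Old + Fumarate was 0.683 times Young (0.638 to 0.730), a log2 ratio of -0.55 that stayed within the limit under all 10 alternatives.

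Id3, an inhibitor of E proteins that marks naive and memory precursor cells (chr4:136143497-136145755, plus strand), was lower in both aged libraries than in Young. It was at 5.49 CPM in Old + Fumarate, 5.44 CPM in Old and 23.4 CPM in Young, or 76, 94 and 959 reads. Old was 0.233 times Young (0.186 to 0.288) and Old + Fumarate 0.234 times Young (0.183 to 0.296). The aged libraries were not separable at this depth, since the interval of their ratio ran from 0.735 to 1.38. Both Id3 ratios over Young stayed lower under all 10 alternatives.

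Id2 and Prdm1 were higher in both aged libraries than in Young. Id2, the ID protein of effector cells, was at 138 CPM in Old + Fumarate, 118 CPM in Old and 30.8 CPM in Young. Prdm1, which encodes the effector factor BLIMP1 and is repressed by BACH2, was at 17.5, 23.9 and 2.46 CPM. Ratios within a library do not depend on scaling between libraries, and 2 such ratios, chosen after the values were seen, set these genes side by side. Per kilobase of exon, Id2 was 18.5 times Id3 in Old + Fumarate (14.7 to 23.5), 15.9 times in Old (12.9 to 19.7) and 0.968 times in Young (0.890 to 1.05). Prdm1 was 0.413 times Bach2 in Old + Fumarate (0.358 to 0.476), 0.570 times in Old (0.509 to 0.638) and 0.0398 times in Young (0.0324 to 0.0485). Each pair sets a gene already seen higher beside one with its highest value in Young, so the direction of these ratios was fixed by the choice of pairs.

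**Figure D2:**
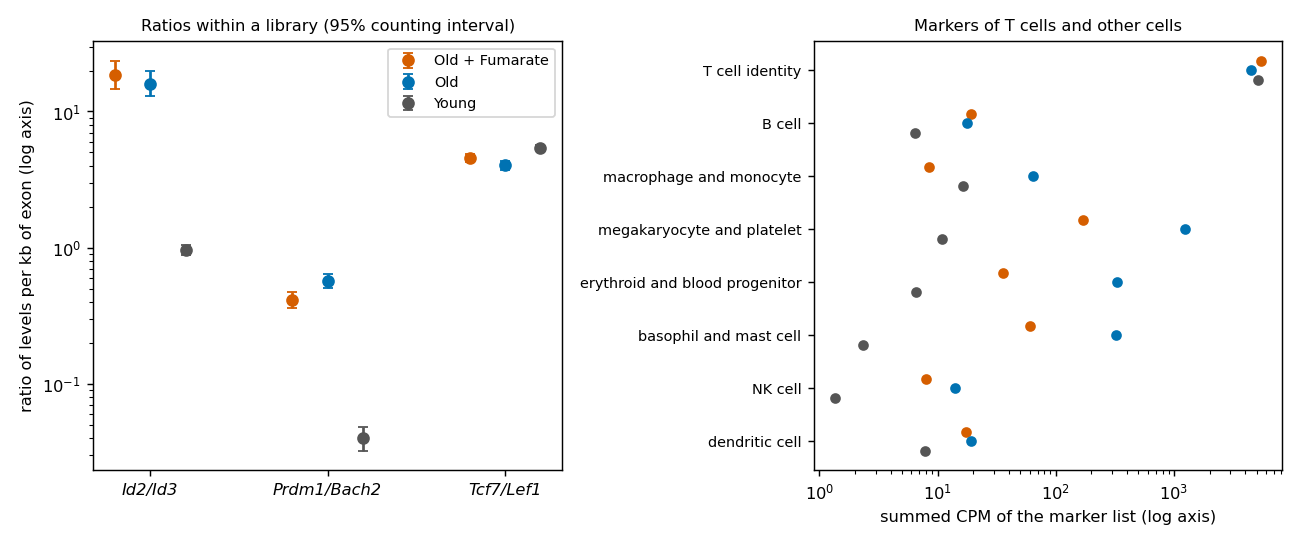
The left panel shows ratios of gene pairs per kilobase of exon on a log axis with 95% counting intervals, and the right panel the summed CPM of each marker list on a log axis, with the Old + Fumarate, Old and Young libraries in orange, blue and grey. Id2 over Id3 was 18.5, 15.9 and 0.968 in that order, while erythroid and blood progenitor markers summed to 35.7, 329 and 6.57 CPM.

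Over the 11 effector regulators, 4 were higher and 1 lower in Old over Young (median 0.11), and 5 were higher and 1 lower in Old + Fumarate over Young (median 0.39). The shares over all genes were 16.5% higher and 6.73% lower for Old, and 10.5% and 6.79% for Old + Fumarate, both over Young. Besides Id2 and Prdm1, Batf, a partner of IRF4 in activated T cells, was at 79.3 CPM in Old + Fumarate, 92.7 CPM in Old and 31.8 CPM in Young. The lower gene was Irf4, induced by T cell receptor signals, at 435, 419 and 696 CPM. In Old + Fumarate over Old, 1 of 11 was higher and none lower (median 0.14), against 2.15% and 11.2% over all genes. That gene was Eomes, a factor of memory and killer T cells, at 47.4 CPM in Old + Fumarate, 26.9 CPM in Old and 29.7 CPM in Young. Tbx21, which encodes T-bet, was at 87.7, 85.8 and 76.9 CPM, and Nfil3 was at 108.8, 79.3 and 82.9 CPM. Of the 5 E protein and other ID protein genes, 3 were higher in Old over Young, against 16.5% over all genes. These were Id2, Id1, at 0.650 CPM in Old + Fumarate, 5.16 CPM in Old and 0.903 CPM in Young, and Tcf4, at 7.72, 22.1 and 5.81 CPM. Id1 and Tcf4 were both lower in Old + Fumarate than in Old, as were 11.2% of all genes and the markers of other blood lineages. The part of such cells in the levels of Id1 and Tcf4 was not tested. The E protein genes Tcf3 and Tcf12 lay within 1.5-fold in all 3 comparisons.

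Satb1, an organiser of chromatin that is abundant in T cells (chr17:51736187-51833290, minus strand), had the highest CPM of the members in every library. With 19027 bases of exon, it ranked 2 in Old + Fumarate, 1 in Old and 3 in Young among the members per kilobase. It was at 1030.2 CPM in Old + Fumarate, 809.5 CPM in Old and 665 CPM in Young. Old was 1.22 times Young (1.19 to 1.24), Old + Fumarate 1.27 times Old (1.24 to 1.30) and Old + Fumarate 1.55 times Young (1.52 to 1.58), a log2 ratio of 0.63. That last ratio lay within a 2-fold limit. Scaling to the T cell identity genes moved the log2 ratio of Old over Young from 0.28 to 0.69, past 1.5-fold. Satb1 and Il7r had the same order, with Old + Fumarate highest and Young lowest.

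Myb, a factor of blood progenitors and thymocytes that also maintains stem-like memory T cells (chr10:21124935-21160984, minus strand), was the member most above Young in the aged libraries. It was at 69.1 CPM in Old + Fumarate, 86.8 CPM in Old and 25.4 CPM in Young. Old was 3.42 times Young (3.15 to 3.70), a log2 ratio of 1.73, at percentile 94.2 of the genes counted. Old + Fumarate was 2.72 times Young (2.49 to 2.98) and 0.797 times Old (0.734 to 0.865). Beside these values, the 10 erythroid and blood progenitor markers summed to 35.7 CPM in Old + Fumarate, 329 CPM in Old and 6.57 CPM in Young. Gata2, the largest of them in both aged libraries, was at 16.2, 113 and 0.122 CPM, and Cd34 at 2.45, 24.3 and 0.146 CPM. All 10 were higher in Old than in Young and lower in Old + Fumarate than in Old. In Old + Fumarate over Young, 6 were higher and 4 lay within 1.5-fold. Over all genes, 16.5% were higher in Old over Young, 11.2% lower in Old + Fumarate over Old and 10.5% higher in Old + Fumarate over Young. Old + Fumarate over Old was thus 0.797 for Myb and 0.109 for the summed markers, and the part of such cells in the level of Myb was not tested.

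Dapl1, a gene related to death-associated protein and used as a marker of naive and precursor T cells (chr2:59484653-59505020, plus strand), had the largest log2 ratio in size among the members in Old over Young, except with scaling to the T cell identity genes, where Myb at 2.13 passed Dapl1 at -2.12. It was at 32.2 CPM in Old + Fumarate, 22.9 CPM in Old and 135 CPM in Young. Old was 0.169 times Young (0.153 to 0.188), a log2 ratio of -2.51, at percentile 0.08 of the genes counted. Old + Fumarate was 1.40 times Old (1.22 to 1.61) and 0.238 times Young (0.216 to 0.262), a log2 ratio of -2.04, so its level was nearer to Old than to Young. Per kilobase of exon, Dapl1 ranked 1 among the members in Young, at 199 CPM per kilobase, and 3 in both aged libraries, at 47.4 in Old + Fumarate and 33.8 in Old. Dap, its relative, was at 44.0 CPM in Old + Fumarate, 51.8 CPM in Old and 72.8 CPM in Young.

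The 250 bases before the transcription start are shown for Dapl1 and Myb, the members furthest below and above Young in the Old library. Sequences are from RefSeq (GRCm38.p6) in the direction of transcription, at chr2:59484403-59484652 on the plus strand and chr10:21160985-21161234 on the minus strand. Capitals mark matches, on either strand, to any of 6 motifs searched.
Dapl1: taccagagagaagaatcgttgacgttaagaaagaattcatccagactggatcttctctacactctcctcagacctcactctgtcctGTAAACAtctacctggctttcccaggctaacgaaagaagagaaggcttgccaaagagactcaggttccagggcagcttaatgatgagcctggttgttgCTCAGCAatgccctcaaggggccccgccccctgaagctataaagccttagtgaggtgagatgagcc
Myb: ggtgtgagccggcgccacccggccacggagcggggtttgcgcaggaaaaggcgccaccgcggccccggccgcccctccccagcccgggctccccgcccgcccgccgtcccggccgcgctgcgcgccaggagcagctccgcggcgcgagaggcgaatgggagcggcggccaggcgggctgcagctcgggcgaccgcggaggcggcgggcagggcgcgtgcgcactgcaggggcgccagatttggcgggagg
The motifs were CTTTGA for TCF and LEF factors, GTAAACA for FOXO, CACACCC for KLF, TAACNG for MYB, TGCTGAG for BACH factors and CAGNTG for E proteins. The Dapl1 window holds 1 FOXO match, a motif found in 3.17% of the 32851 promoter windows of that length, and 1 BACH match on the opposite strand, found in 6.21%. The Myb window, with 81.2% G and C, holds none of the 6. Over the 18 RefSeq start windows of the 10 members, the TCF and LEF motif lay in 2 (13.8% of all windows), KLF in 3 (6.93%), MYB in 7 (19.8%), E-box in 4 (44.8%), BACH in 2 and FOXO in 1, that of Dapl1. Some windows of Lef1 and of Satb1 overlap, so windows are not independent, and a match describes letters and not a site in use.

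**Figure D3:**
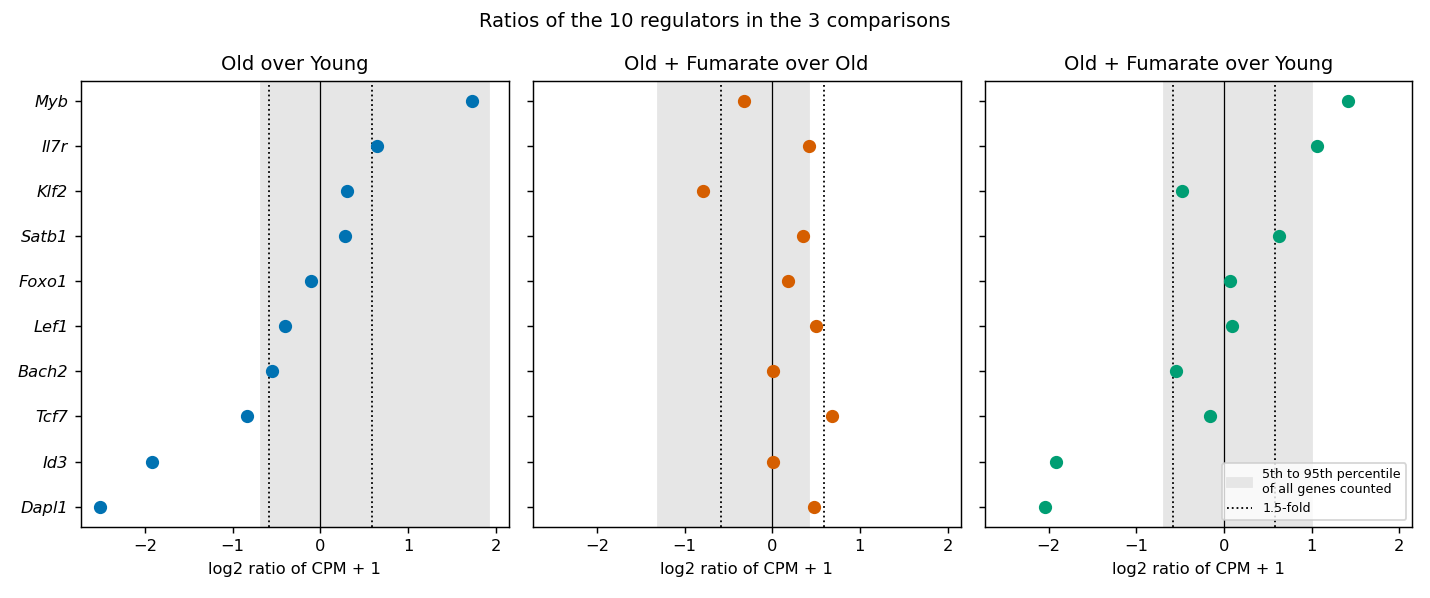
Log2 ratios of CPM + 1 (x axis) for the 10 members in Old over Young, Old + Fumarate over Old and Old + Fumarate over Young, with dotted lines at 1.5-fold and grey bands from the 5th to the 95th percentile of the 13750 genes counted. Dapl1 and Id3 lie left of the band in both comparisons with Young, at -2.51 and -1.92 for Old and at -2.04 and -1.91 for Old + Fumarate, as does Tcf7 at -0.83 in Old over Young; right of the band lie Tcf7 (0.68), Lef1 (0.50), Dapl1 (0.47) and Il7r (0.42) in Old + Fumarate over Old, and Myb (1.41) and Il7r (1.07) in Old + Fumarate over Young.

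The members took different orders over the 3 libraries. Young was highest for Tcf7, Bach2, Id3 and Dapl1, and Old + Fumarate for Lef1, Foxo1, Satb1 and Il7r, while Old was highest for Klf2 and Myb. Old was lowest for 6 members. For 5 members (Tcf7, Bach2, Id3, Myb and Dapl1) the Old + Fumarate level lay between Old and Young, although for Bach2 and Id3 it did not differ from Old beyond counting error. For Satb1 and Il7r, Old + Fumarate lay further from Young than Old did. The comparisons Old over Young and Old + Fumarate over Old share the Old library and are therefore not independent.

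Other naive and precursor genes differed in both directions, with more lower than higher in each aged library against Young. Of 13, 5 were lower and 1 higher in Old over Young (median -0.10), and 8 were lower and 2 higher in Old + Fumarate over Young (median -0.62). The shares over all genes were 6.73% lower and 16.5% higher for Old, and 6.79% and 10.5% for Old + Fumarate, both over Young. In Old + Fumarate over Old, 4 of the 13 were higher and 3 lower (median -0.19), against 2.15% and 11.2% over all genes. Nsg2, a marker of recently formed naive T cells, was at 6.06 CPM in Old + Fumarate, 2.61 CPM in Old and 26.9 CPM in Young, the order of Tcf7 and Dapl1. Actn1, an actin crosslinker of naive cells, was at 83.2, 81.8 and 192 CPM, and Ldhb, a lactate dehydrogenase subunit of resting cells, at 7.57, 9.62 and 22.7 CPM. Sox4 was at 0.866 CPM in Old + Fumarate, 8.98 CPM in Old and 5.51 CPM in Young, and Igfbp4 at 25.9, 52.5 and 39.5 CPM. Cxcr5, a receptor of precursor and follicular T cells and also of B cells, was at 12.1 CPM in Old + Fumarate, 7.30 CPM in Old and 4.59 CPM in Young, the order of Il7r. The B cell markers had the same order in sum, at 19.0, 17.6 and 6.49 CPM, and the part of B cells in the level of Cxcr5 was not tested.

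**Figure D4:**
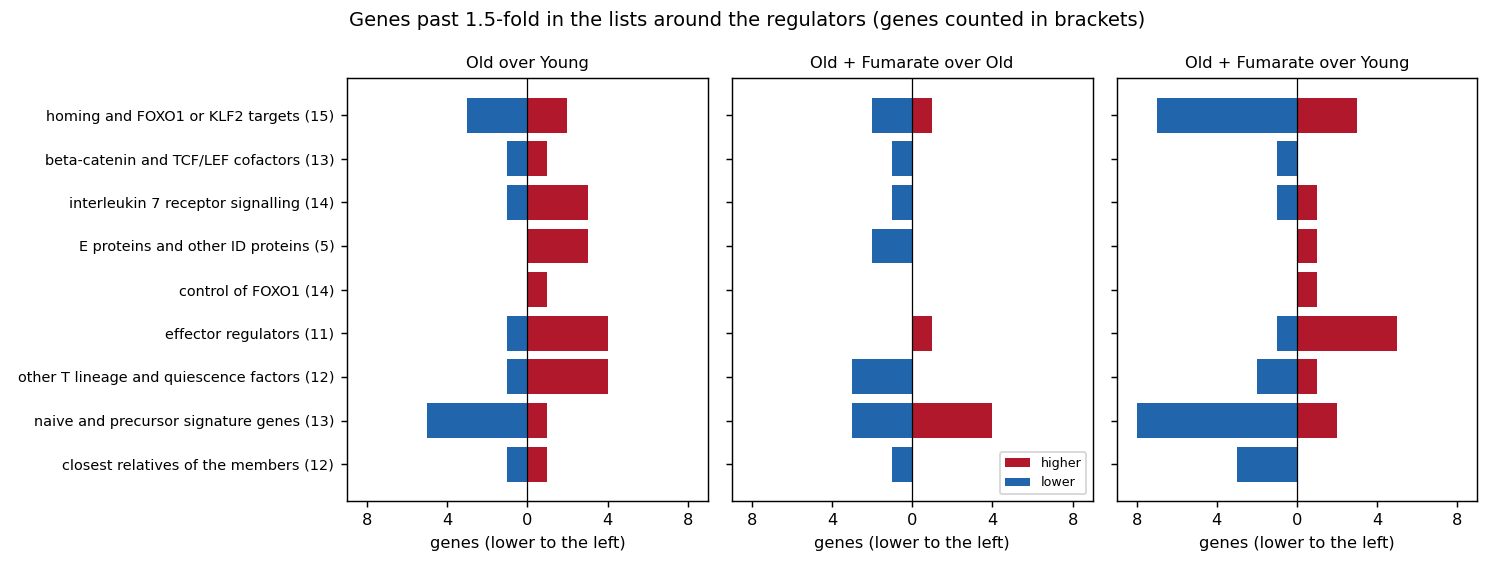
Number of genes (x axis) at least 1.5-fold higher (red, to the right) or lower (blue, to the left) in 9 lists around the regulators, for Old over Young, Old + Fumarate over Old and Old + Fumarate over Young, with the number of genes counted in brackets. In Old + Fumarate over Young the naive and precursor list had 8 lower and 2 higher of 13, and the effector list 5 higher and 1 lower of 11. Over all genes, 6.79% were lower and 10.5% higher there.

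Of 12 other T lineage and quiescence factors, 4 were higher and 1 lower in Old over Young (median -0.23), and 3 were lower and none higher in Old + Fumarate over Old (median -0.16). Over all genes, 16.5% were higher and 6.73% lower in the former, and 11.2% lower and 2.15% higher in the latter. Runx1, a factor of T cells and blood progenitors, was at 12.7 CPM in Old + Fumarate, 65.1 CPM in Old and 16.2 CPM in Young, and Gata3, of helper T cells and of mast cells, at 49.2, 75.1 and 33.8 CPM. Slfn2, needed for T cell quiescence, was at 129.1, 182 and 233 CPM, and Zbtb7b, a factor of helper T cells, at 36.2, 41.2 and 57.8 CPM. Zfp36l2, which promotes decay of messenger RNA, was at 239, 279 and 156 CPM. Bcl6, a factor of follicular helper T cells, was near the minimum at 1.52 CPM in Old + Fumarate, 2.95 CPM in Old and 1.51 CPM in Young. Bcl11b, which guards T cell identity, was at 69.2, 57.1 and 80.4 CPM and within 1.5-fold throughout. Among the closest relatives of the members, 12 of 15 passed the minimum, and 1 was higher and 1 lower in Old over Young (median 2.26e-05). The lower one was Klf4, a brake on T cell division, at 5.99 CPM in Old + Fumarate, 5.56 CPM in Old and 18.5 CPM in Young. The higher one was Bach1, at 7.36, 29.4 and 7.37 CPM, so that it was above Young in Old where Bach2 was below it. Foxo3 was at 55.6, 76.5 and 72.5 CPM and Mybl2, the relative of Myb in dividing cells, at 82.9, 74.6 and 72.3 CPM. Mybl1 was at 8.37, 6.49 and 5.66 CPM, and Tcf7l1, a relative of Tcf7, at 0.650, 0.927 and 1.68 CPM.

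Likeness of pattern was measured as the distance between log2 values of CPM + 1, centred per gene, over the 3 libraries and the 9624 genes with a mean of at least 10 CPM. With 3 points per gene it is a description. The 5 genes nearest to Tcf7 were Fam71b, Rundc3b, Tpi-rs11, Gm14760 and Enkd1, with distances of 0.0376 to 0.0624, of which Tpi-rs11 and Gm14760 are annotated as processed pseudogenes. Lef1 ranked 288 by this measure, at 0.305. Among the 5 nearest to Dapl1 were Aldoc, Nr4a3, Cth and Gpt2, at 0.208 to 0.238. Nr4a3, a nuclear receptor gene induced by T cell receptor signals, was at 155.8 CPM in Old + Fumarate, 101.2 CPM in Old and 517 CPM in Young. Id3 was the nearest member to Dapl1, at rank 15 and 0.439.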

How the data were processed

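Libraries were made from polyadenylated RNA with a SMARTER kit, per the labels' protocols. The submitters' processing notes name STAR, Partek and the mm10 build, without versions or roles; the strand setting is not stated in them. The deposited table is named for raw counts, but its values are CPM by the authors: each of the 3 columns sums to 1000000. Depth was estimated from the step between low values. With a tolerance of 0.02 reads, 64.1%, 58.8% and 54.4% of genes sat at whole reads in Old + Fumarate, Old and Young, so a test on counts was not run.

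Columns were matched to samples by the labels. A constant of 1 CPM was added, with a minimum mean of 1 CPM and a 1.5-fold limit, and intervals are exact (Clopper-Pearson, 95%) on estimated reads, which are not independent molecules. The members, the 17 gene lists and the motifs were chosen with earlier results of these data known. Genes named from the pathway lists are up to 3 per list and comparison with the largest ratio; Bcl11b, Ctnnb1, Cxcr5, Il2rg, Irf4, Mybl2, Tbx21 and Tcf12, and the markers named, were added after their values were seen. Some genes the rule names are not reported here. Table positions run 1 base past the gene end, which was corrected; 17191 of 17355 genes matched by symbol then had their GENCODE M21 position, and lengths are merged M21 exons. Promoters of all 10 members matched by symbol. Calls and intervals were tested on data simulated with counting error only, which cannot test spread between mice or between cell mixtures. Alternatives were 4 scalings, 2 added constants, a 2-fold limit, 2 minimums and thinning to the smallest library. Software was Python 3.11.15 with pandas 2.3.3, numpy 2.4.6, matplotlib 3.10.9 and scipy 1.17.1.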

Additional observations from a re-analysis of the deposited data

How the results depend on the processing

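Of 210 recomputed log2 ratios of single members, 169 stayed inside the counting interval, 41 moved past it and none of those past 1.5-fold turned sign. In Old over Young, upper-quartile scaling left 1 member higher with a median of -0.35, scaling to the T cell identity list gave 4 higher with a median of 0.15, and a minimum of 10 CPM a median of -0.40; a 2-fold limit left 3 members past it, 1 of them higher. In Old + Fumarate over Old, scaling to the T cell identity list left 1 member past 1.5-fold, 0 higher, and a median of 0.036, while upper-quartile scaling gave a median of 0.33. There an added constant of 5 CPM or a minimum of 10 CPM left 1 member past the limit and 0 lower, and the minimum gave a median of 0.35, because Klf2 then fell within 1.5-fold or under the minimum, and a 2-fold limit left 0 members. In Old + Fumarate over Young the median was 0.13 when scaled by T cell identity genes and 0.068 with a minimum of 10 CPM, and the counts of members stayed within 1.5 times. For the alternatives that change the scaling or the limit, the construction itself sets the change; what sets the T cell identity genes lower in Old was not tested. Dapl1, Id3 and Myb kept their calls against Young under all 10 alternatives, in Old and in Old + Fumarate. Klf2, with 81 to 351 reads, and Id3, with 76 to 959, have the widest intervals. With 1 library a group, no replicate could be left out, and spread between mice is unknown.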

Other observations

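Several annotated genes overlap the members, and without a stated strand setting their reads cannot be told apart from those of an overlapping member on the other strand. Opposite Tcf7, A630014C17Rik was at 0.794 CPM in Old + Fumarate, 1.16 CPM in Old and 1.02 CPM in Young, and opposite Bach2, Bach2os was at 0.236, 0.188 and 0.265 CPM. Opposite Satb1, Gm6934 was at 0.794 CPM in Old + Fumarate, 1.39 CPM in Old and 0.854 CPM in Young. These levels are small beside those of the members. Annotated antisense genes at Lef1, Foxo1 and Myb were not among the genes listed, so their levels are unknown. At Satb1, 5 same-strand entries awaiting experimental support had their own values. The one with the largest difference, E430014B02Rik, was at 3.25 CPM in Old + Fumarate, 2.37 CPM in Old and 0.512 CPM in Young, the order of Satb1 itself.

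Other marker lists were measured beside those of the blood lineages above. The 9 B cell markers measured summed to 19.0 CPM in Old + Fumarate, 17.6 CPM in Old and 6.49 CPM in Young. Ebf1, with 9.31, 5.91 and 0.927 CPM, had the largest value of that list in both aged libraries. In Old + Fumarate over Old, 1 of the 5 genes past the minimum was lower, 4 lay within 1.5-fold and none was higher. Against Young, 3 were higher in Old and 2 in Old + Fumarate, and none was lower in either. The 9 macrophage and monocyte markers measured summed to 8.52, 64.3 and 16.5 CPM, with C1qb at 0 in Old + Fumarate and Young and Adgre1 at 0 in Old + Fumarate. Of the 7 that passed the minimum, 7 were lower in Old + Fumarate than in Old, 6 were higher in Old than in Young, and 4 were higher and 1 lower in Old + Fumarate than in Young. For both lists, the shares over all genes were 16.5% higher and 6.73% lower in Old over Young. They were 2.15% and 11.2% in Old + Fumarate over Old, and 10.5% and 6.79% in Old + Fumarate over Young. The part of the macrophage and monocyte markers in the results was not tested. The 4 NK cell markers measured summed to 8.01, 14.0 and 1.37 CPM, with Klra8 at 0 in Old + Fumarate, and the 3 dendritic cell markers measured to 17.3, 19.3 and 7.83 CPM. A value of 0 allows up to 3 reads, which is 0.217 CPM in Old + Fumarate, 0.174 CPM in Old and 0.0732 CPM in Young.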
